A study of Mus musculus with 2 samples.

Results

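The genes followed here were chosen by where they are known to work: of the 10, 9 encode the microRNAs of skeletal and heart muscle (Mir1a-1, Mir1a-2, Mir133a-1, Mir133a-2, Mir133b, Mir206, Mir208a, Mir208b and Mir499) and 1, Mir122, encodes the main microRNA of hepatocytes. They were taken by symbol from the 2202 annotated microRNA (miRNA) genes of the tables, and all 10 of 10 matched. The tissue was hippocampus (the labels name it a layer of hippocampus) of male mice of the strain B6CASTF1/J, an F1 hybrid of the C57BL/6 and CAST backgrounds, aged 18 to 20 months. No transgene, deletion or treatment is named. There was 1 group with 2 libraries of microRNA sequencing, numbered as biological replicates 1 and 2, so levels and the spread between libraries could be described and no condition was compared. The labels give both libraries the same donor entry and separate tissue entries, so a difference between these libraries may be technical. The exact binomial test used below weighs such a difference against counting error alone.

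MicroRNAs are cut from hairpin transcripts as a pair of short arms, 5p and 3p, and 1 of them is usually kept in the silencing complex, where bases 2 to 8, the seed, pair with target messenger RNAs. The muscle miRNAs, often called myomiRs, are switched on by the factors that drive muscle differentiation. Mir1a and Mir133a genes are transcribed in pairs in heart and skeletal muscle, Mir206 and Mir133b form the pair of skeletal muscle, and Mir208a, Mir208b and Mir499 lie within genes for the heavy chains of myosin and are made along with them. In liver, miR-122 is among the most abundant miRNAs and acts in lipid metabolism. These genes are not among those used to mark neurons or glia.

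The RefSeq table of miRNA sequences (build GRCm38.p6) held mature sequences for 6 of the 10 genes. Those that separate or join the muscle genes are shown 5′ to 3′, with the seed in capitals.
miR-206-3p: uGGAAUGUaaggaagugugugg
miR-206-5p: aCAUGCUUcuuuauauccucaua
miR-1a-1-5p: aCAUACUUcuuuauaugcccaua
miR-499-5p: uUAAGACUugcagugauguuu
miR-208a-3p: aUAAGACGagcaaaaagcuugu
miR-208b-3p: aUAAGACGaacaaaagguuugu
The 3p arms of Mir208a and Mir208b have the same seed and 19 of 22 bases in common, and differ at G10A, A16G and C18U (the miR-208a base first, counted from the 5′ end). The seed of miR-499-5p matches theirs at bases 2 to 7. The 5p arms of Mir206 and Mir1a-1 share 20 of 23 bases and differ at G5A, C17G and U19C (the miR-206 base first), of which the first lies in the seed. The 3p arm of the Mir1a genes, miR-1a-3p, is known to have the same seed as miR-206-3p; for Mir1a-1 the table gave the 5p arm, and miR-1a-3p did not enter the search for seeds. Among the 1738 mature miRNAs of the table, the seed of miR-206-3p occurs also in miR-6349 and miR-6382, and that of miR-499-5p in no other.

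Gene counts pool both arms of a hairpin. The Mir206 hairpin (chr1:20679010-20679082, mm10, plus strand) is the most counted of the 10. Its 73 bases are given with the 5p and 3p arms in capitals, and gene counts do not tell where in it the reads lie.
Mir206: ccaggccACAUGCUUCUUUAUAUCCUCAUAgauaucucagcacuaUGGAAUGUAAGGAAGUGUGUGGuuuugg

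Mir206 and Mir122 were read clearly in both hippocampal libraries, Mir499 at a lower level, Mir208a and Mir208b in a handful of reads, and the Mir1a and Mir133 genes almost not at all. Of the 10 genes, 3 (Mir206, Mir122 and Mir499) had at least 10 counts in both libraries, the limit for detection, which 17.4% of all miRNA genes reached (384 of 2202). The 9 muscle genes together held 250 of 3758318 sense counts in replicate 1 and 522 of 5598792 in replicate 2. That is 66.5 (95% Wilson interval 58.8 to 75.3) and 93.2 (85.6 to 101.6) counts per 1000000 sense counts of miRNA genes (CPM), or 79.9 ± 18.9 CPM (mean ± SD, n = 2 here and for each mean below). Put as reads, 1 in 15033 and 1 in 10726 counted reads came from a muscle gene. Intervals describe counting error alone, because each is computed from the count of a single library. The reads carry no molecular identifiers that would mark them as separate molecules, so the intervals may be too narrow. In whole tissue, fewer cells of a type and less RNA per cell cannot be told apart.

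**Figure D1:**
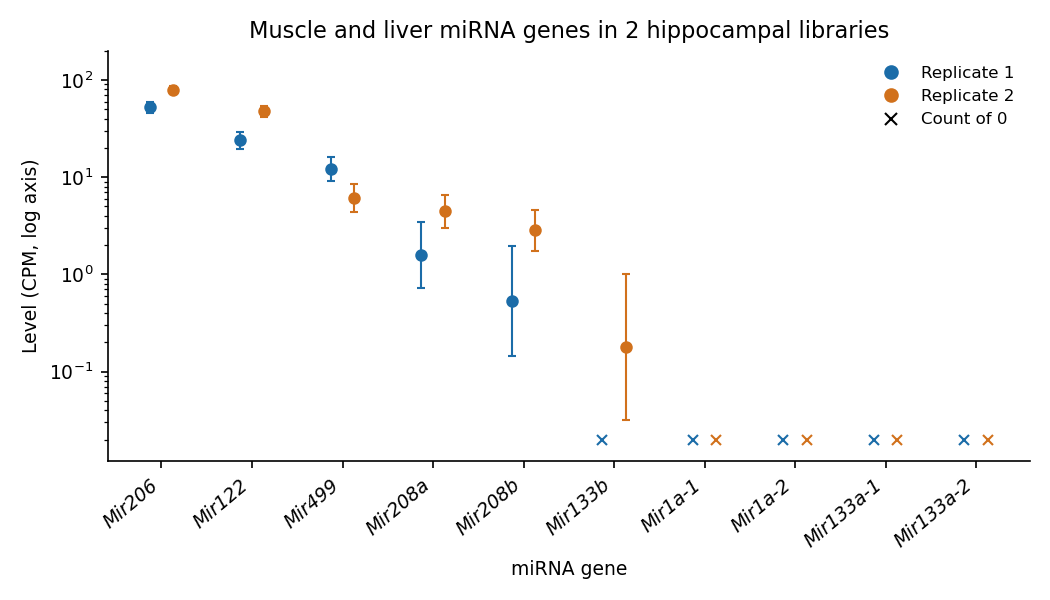
Level of each of the 10 genes in CPM (log axis) in replicate 1 (blue) and replicate 2 (orange); bars are 95% Wilson intervals and crosses mark a count of 0, placed at the foot of the axis. Mir206 stands highest in both libraries at 52.2 and 79.7 CPM, and Mir1a-1, Mir1a-2, Mir133a-1 and Mir133a-2 have no count in either.

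Mir206, the miRNA gene of skeletal muscle that is also induced in muscle after loss of its nerve, had 196 counts in replicate 1 and 446 in replicate 2. These are 52.2 CPM (interval 45.3 to 60.0) and 79.7 CPM (72.6 to 87.4), a mean of 65.9 ± 19.5 CPM. Both libraries therefore held well over the detection limit, and the intervals of the 2 libraries did not overlap. Mir206 made up most of what was counted for the muscle genes, with 78.4% (Wilson 72.9 to 83.1%) of their counts in replicate 1 and 85.4% (82.2 to 88.2%) in replicate 2. It lies on the plus strand in an exon of the long non-coding RNA gene Gm28653.

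Mir122, which was the second of the 10 in both libraries, had 90 counts in replicate 1 and 266 in replicate 2. Its level was 23.9 CPM (interval 19.5 to 29.4) and 47.5 CPM (42.1 to 53.6), with a mean of 35.7 ± 16.7 CPM. Mir122 lies on chromosome 18 from 65248861 to 65248926 (mm10, plus strand), in an exon of the long non-coding RNA gene AC157910.3. Within a library, where no scaling between libraries enters, Mir206 had 2.18 times the counts of Mir122 in replicate 1 (95% exact interval 1.69 to 2.83) and 1.68 times in replicate 2 (1.44 to 1.96). The ratio was above 1 in both libraries, and its 2 intervals overlapped.

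Mir499 lies on chromosome 2 from 155622880 to 155622958 (plus strand) in an intron of Myh7b, a myosin gene of slow muscle and heart. It was the third of the 10, with 46 counts (12.2 CPM, interval 9.18 to 16.3) in replicate 1 and 34 counts (6.07 CPM, interval 4.35 to 8.49) in replicate 2. Unlike Mir206 and Mir122 it had the higher CPM in replicate 1, and its mean was 9.16 ± 4.36 CPM. Mir206 had 4.26 times as many counts as Mir499 in replicate 1 (exact interval 3.08 to 6.01) and 13.1 times in replicate 2 (9.25 to 19.2), and these intervals did not overlap.

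Mir208a and Mir208b lie on the minus strand of chromosome 14, from 54949060 to 54949142 in an intron of Myh6 and from 54975700 to 54975776 in an intron of Myh7, the genes of the alpha and beta heavy chains of cardiac myosin. Mir208a had 6 counts in replicate 1 (1.60 CPM) and 25 in replicate 2 (4.47 CPM). Mir208b had 2 counts (0.532 CPM) and 16 counts (2.86 CPM). Both were thus above the limit for detection in replicate 2 alone. The intervals of the paralogs overlapped in each library: Mir208a to Mir208b was 3.0 (exact interval 0.536 to 30.4) in replicate 1 and 1.56 (0.802 to 3.13) in replicate 2, so their order was not resolved at this depth.

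The 3 genes in myosin introns, each of which has an arm with the same bases 2 to 7, summed to 54 counts (14.4 CPM) in replicate 1 and 75 counts (13.4 CPM) in replicate 2. The near-equal sums were made up differently: Mir499 gave 46 of the 54 counts in replicate 1 and 34 of the 75 in replicate 2. Mir499 to Mir208a was 7.67 (exact interval 3.27 to 22.0) in replicate 1 and 1.36 (0.788 to 2.38) in replicate 2, where the interval includes equal counts.

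The order Mir206, Mir122, Mir499, Mir208a, Mir208b was the same in both libraries, and it was also the same in CPM per 100 annotated bases of the hairpin, the scale on which genes of 66 to 83 bases can be compared by length. On that scale Mir206 had 71.4 and 109.1, Mir122 36.3 and 72.0, and Mir499 15.5 and 7.69 in replicates 1 and 2. In plain CPM, the ranges over the 2 libraries of Mir206 and Mir122, of Mir122 and Mir499 and of Mir499 and Mir208a did not overlap, while those of Mir208a and Mir208b did. Among all 2202 miRNA genes, ranked by mean CPM, Mir206 stood at 207, Mir122 at 242, Mir499 at 313, Mir208a at 382 and Mir208b at 443. There were 193 genes with a mean of 100 CPM or more and 306 with 10 or more. Mir206 and Mir122 thus fell between those levels, and the median of the 384 detected genes was 101.9 CPM.

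**Figure D2:**
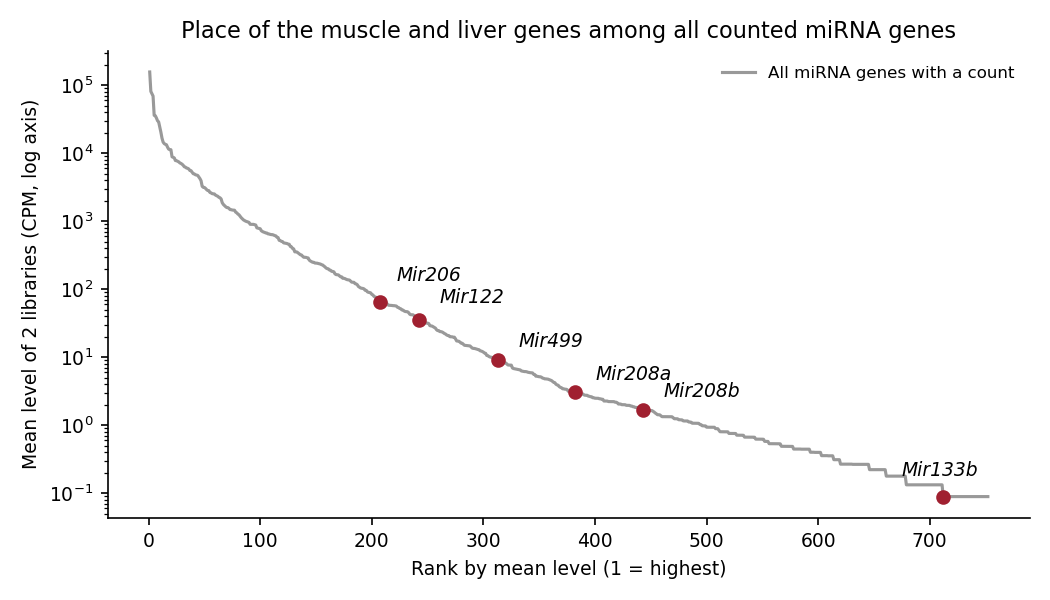
Mean CPM of every miRNA gene with a count (grey line, log axis) against its rank, with the 6 counted muscle and liver genes as red points. Mir206 is at rank 207 with 65.9 CPM, and Mir133b is in the lowest step, with 1 count in the 2 libraries together, where ranks are tied.

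Genes that came closest to a member by level in both libraries were sought by the distance of log2(CPM + 1) over the 2 libraries. For Mir206 they were Mir669o (56.1 and 75.9 CPM), Mir3059 (46.6 and 80.2 CPM) and Mir182 (50.8 and 90.7 CPM). For Mir122 they were Mir193b (21.6 and 43.9 CPM), Mir7047 (27.9 and 45.7 CPM) and Mir218-1 (20.8 and 43.8 CPM). For Mir499 they were Mir669h (11.2 and 6.79 CPM), Mir344d-3 (14.1 and 5.72 CPM) and Gm24270 (12.2 and 7.50 CPM). With 2 libraries, likeness means only a like level and a like difference between the libraries.

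The Mir1a and Mir133 genes were at or next to 0. Mir1a-1, Mir1a-2, Mir133a-1 and Mir133a-2 had no sense count in either library, and Mir133b had 0 in replicate 1 and 1 in replicate 2. Of all 2202 genes, 65.8% had no sense count in either library. Mir1a-1 and Mir133a-2 lie 9254 bases apart on chromosome 2 (180389048 to 180389124 and 180398379 to 180398482, plus strand). Mir1a-2 and Mir133a-1 lie 2504 bases apart on chromosome 18 (10785481 to 10785552 and 10782909 to 10782976, minus strand), in an intron of Mir133a-1hg and opposite an intron of the protein-coding gene Mib1. Mir206 and Mir133b are 3686 bases apart and both in exons of Gm28653, and had 446 counts and 1 count in replicate 2.

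These zeros set no upper limit on a miRNA whose sequence other genes hold too, because a read that fits several places in the genome enters no gene in these tables. Such reads made up 51.5% of replicate 1 and 46.7% of replicate 2. The hairpins of Mir1a-1 and Mir1a-2 share a run of 28 bases and those of Mir133a-1 and Mir133a-2 a run of 31, each longer than a mature miRNA. Mir133b shares a run of 21 bases with both Mir133a genes, and all 21 lie in its 3p arm, which has 22 bases. The 5p arm of Mir133b (22 bases) shares at most 11 bases with any annotated hairpin elsewhere, and that of Mir1a-1 (23 bases) at most 14. If reads of these arms fit 1 place in the genome, which was not tested, the counts do limit them: with a count of 0 the upper limit is 3 counts, or 0.798 and 0.536 CPM for the respective libraries, and the 1 count of Mir133b in replicate 2 has a Wilson upper bound of 1.01 CPM. Mir133b lies on chromosome 1 from 20682769 to 20682887 (plus strand).

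The other 5 genes had no such copy. The longest run shared with any other annotated hairpin was 12 bases for Mir122, 13 for Mir206 and Mir499, and 14 for Mir208a and Mir208b. The 13 bases that Mir206 shares with the Mir1a genes cover 10 of the 22 bases of its 3p arm. The 10 genes therefore fell into 5 that share 20 bases or more, with 1 count in all over the 2 libraries, and 5 that do not, with 340 counts in replicate 1 and 787 in replicate 2. Among all miRNA genes, 1133 share a run of 20 bases or more, and 972 of them (85.8%) had no count in either library, against 478 of the other 1069 (44.7%). Leaving out hairpins at the same place on the opposite strand, those shares were 951 of 1087 (87.5%) and 499 of 1115 (44.8%). How many of the uncounted reads came from Mir1a or Mir133 genes is not given by the tables, and the part of shared sequence in their zeros was not tested.

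**Figure D3:**
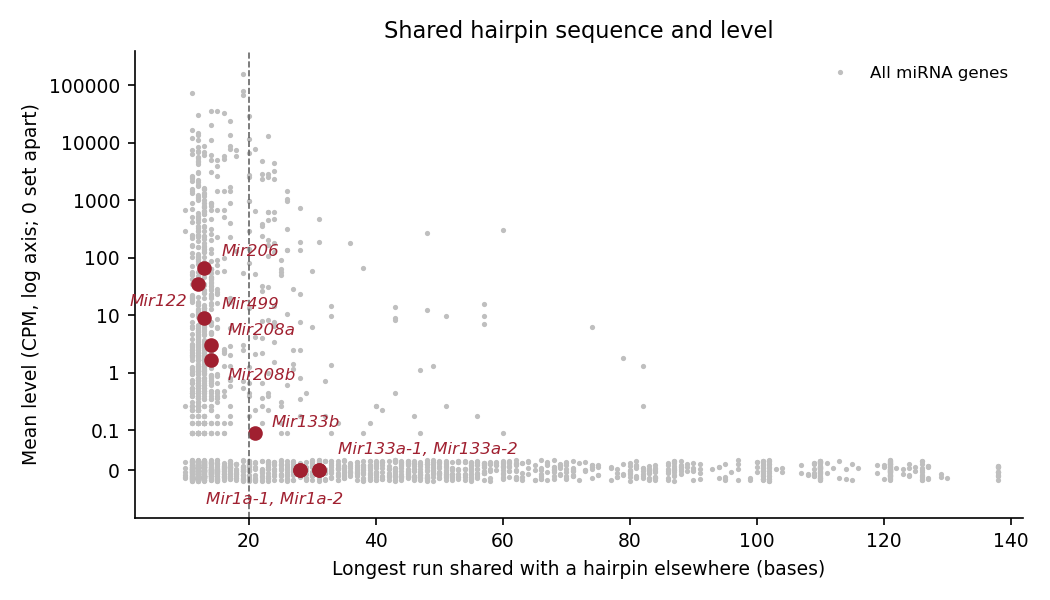
Mean CPM (log axis, with genes at 0 set apart at the foot and spread vertically) against the longest run of bases that a hairpin shares with a hairpin elsewhere in the genome, for all 2202 miRNA genes (grey) and the 10 muscle and liver genes (red); the dashed line is at 20 bases. The 5 genes right of the line share 21 to 31 bases and have at most 1 count, and the 5 left of it share 12 to 14 bases.

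The locus of Mir1a-2 did give reads, from its other strand. Mir1b, annotated on the plus strand of chromosome 18 over the whole of Mir1a-2, had 13 sense counts (3.46 CPM, Wilson 2.02 to 5.92) in replicate 1 and 9 (1.61 CPM, 0.846 to 3.06) in replicate 2. Without strand those reads fall in both genes and are counted for neither. Mir133c, a further relative on chromosome 2, had no count in either library. Apart from these Mir1b reads and the 1 read of Mir133b, the counted reads of Mir1, Mir133 and Mir206 genes came from Mir206.

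Mir206, Mir122 and Mir499 differed between the libraries by more than counting error. An exact two-sided binomial test, with the expected share from the TMM-scaled library sizes of edgeR and Benjamini-Hochberg adjustment over 384 detected genes, called 3 of the 3 detected members, where it called 65.1% of all detected genes (250 of 384), so the count of 3 is not particular to them. Mir122 was 1.59-fold higher in replicate 2 (95% interval 1.25 to 2.05, adjusted p = 0.000184, exact binomial test). Mir206 was 1.23-fold higher in replicate 2 (1.03 to 1.46, adjusted p = 0.0288, exact binomial test). Mir499 was 2.51-fold higher in replicate 1 (1.58 to 4.03, adjusted p = 9.94e-05, exact binomial test). The median absolute difference was 1.36-fold over all detected genes.

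These calls compare 2 libraries over counting error and no conditions. When the 2 libraries were taken as replicates of 1 group, with the spread over all genes as error (a biological coefficient of variation of 34.2%, edgeR common dispersion), the edgeR exact test called 2 of 384 genes (0.521%) and none of the 3: the adjusted p was 1 for each, and the unadjusted p was 0.109 for Mir499, 0.365 for Mir122 and 0.685 for Mir206. The difference of Mir206 also lost its call when genes with low counts stayed in the test (adjusted p = 0.0519, exact binomial test). All 3 kept their direction when libraries were scaled by total counts, which moves the median log2 ratio of all genes from -0.01 to 0.31. On that scale the calls numbered 195 toward replicate 2 and 76 toward replicate 1, against 119 and 131 with TMM, and the log2 ratios were 0.61 for Mir206, 0.99 for Mir122 and -1.01 for Mir499.

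**Figure D4:**
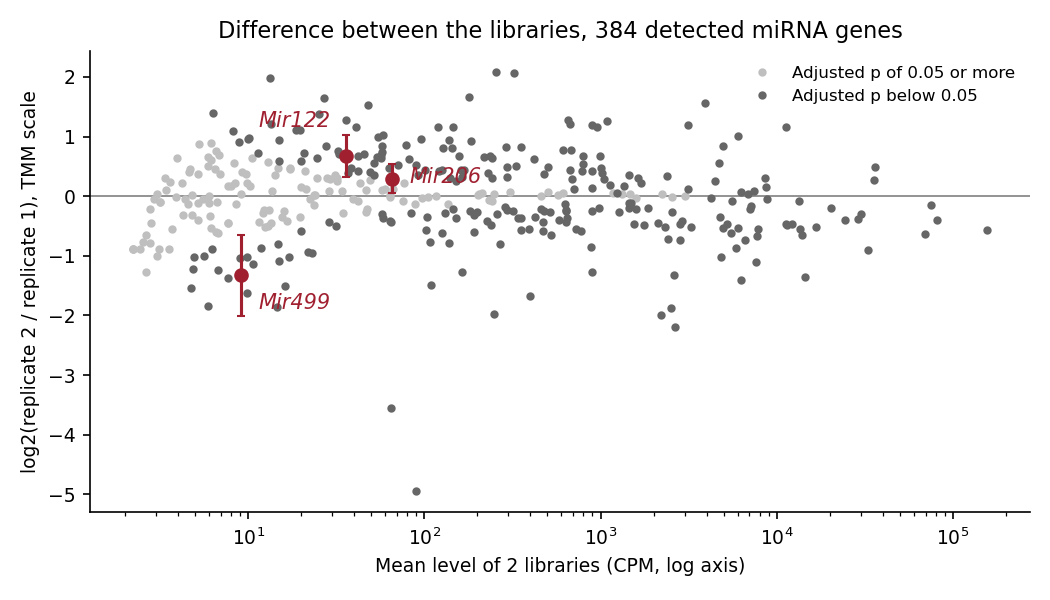
log2 ratio of replicate 2 to replicate 1 on the TMM scale against mean CPM (log axis) for the 384 detected miRNA genes, dark grey where the adjusted p of the exact binomial test was below 0.05; red points are the 3 detected members with 95% exact intervals. Mir206 and Mir122 lie above the zero line at 0.29 and 0.67, and Mir499 lies below it at -1.33.

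Mir208a and Mir208b entered a test only without the filter on low counts. There, Mir208a had a log2 ratio of replicate 2 to replicate 1 of 1.17 (adjusted p = 0.207, exact binomial test) and Mir208b of 2.11 (adjusted p = 0.117). Neither passed, and with 6 and 2 counts in replicate 1 the ratios rest on few reads.

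Markers of other cells and tissues were set beside the members, on the TMM scale where a fold is given. Neuronal genes (8 of 12 detected) summed to between 50948 and 52470 CPM, led by Mir132 and Mir128-1, and had 766 and 563 times the counts of the 9 muscle genes in replicates 1 and 2. Both lists hold genes that share sequence with a copy and lose the shared reads, so these ratios cover counted reads only. Smooth muscle and mural genes (2 of 3 detected) had 10193 CPM together in replicate 1 against 5784 in replicate 2, 2.19-fold higher in replicate 1. Their leading genes, Mir143 and Mir145a, which mark smooth muscle and not striated muscle, were 2.15-fold and 3.20-fold higher there. Red cell genes (2 of 2 matched and detected) summed to 52.4 and 77.0 CPM. This sum leaves out Mir486, which had 10.9 and 18.8 CPM and was not on the list under that symbol. Leukocyte genes (3 of 3 detected) summed to 812 and 762 CPM, and Mir126a of endothelium had 11853 and 10726 CPM. The sums of neuronal and of leukocyte genes, and Mir126a, were also higher in replicate 1, by 1.21-fold, 1.33-fold and 1.38-fold. Not all neuronal genes leaned that way: Mir138-1 and Mir138-2 were called higher in replicate 2, with log2 ratios of 0.26 and 0.34. Each other detected neuronal gene was called higher in replicate 1, Mir128-1 by 1.05-fold. The sum of red cell genes was 1.18-fold higher in replicate 2, where Mir451a was 1.28-fold higher (adjusted p = 0.0164, exact binomial test). Mir144 was 1.17-fold higher in replicate 1 and not called (adjusted p = 0.468, exact binomial test). A higher level in replicate 1, as for Mir499, is thus not particular to smooth muscle, and 34.1% of all detected genes were called that way. The part of these cells in the differences of Mir206, Mir122 and Mir499 was not tested.

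Other miRNA genes known for liver were, where detected, also higher in replicate 2. Of Mir192, Mir194-1 and Mir194-2, 2 were detected, and the 3 gave sums of 18.4 and 58.0 CPM in replicates 1 and 2, against 23.9 and 47.5 CPM for Mir122. Mir194-2 had 41 and 239 counts and was 3.14-fold higher in replicate 2 (adjusted p = 9.32e-14, exact binomial test). Mir192 had 28 and 86 counts and was 1.66-fold higher there (adjusted p = 0.0289, exact binomial test). That direction is not particular to liver genes, as the binomial test called 31.0% of all detected genes that way (119 of 384). The edgeR exact test with common dispersion called no gene higher in replicate 2. Mir194-1, at 0 in both libraries, has a copy in Mir194-2, so its zero sets no limit. Mir194-2 shares a run of 22 bases with another hairpin, so its counts and fold leave out any reads that fit both. Epithelial genes (6 of 7 detected) had a sum 1.33-fold higher in replicate 1, which came from Mir203, itself 2.41-fold higher there. The 6 others, summed after this was seen, were 1.35-fold higher in replicate 2 (124 and 207 CPM in replicates 1 and 2). Not all of them leaned that way, and Mir429, the highest, was not called (adjusted p = 0.453, exact binomial test). A sum chosen after its values were seen lends no weight to the difference of Mir122. Of 4 genes listed for pancreas, 1 was detected, Mir375 of endocrine cells. It was 1.14-fold higher in replicate 1 (adjusted p = 0.00231, exact binomial test). Mir217, the next highest of that list, had 8 and 3 counts in replicates 1 and 2. Mir192 and Mir194-2 are also known from gut epithelium and kidney, so they do not mark liver alone.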

How the data were processed

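Small RNA of 2 libraries of hippocampal tissue was sequenced; the labels give the size range as below 30. The tables deposited by the authors hold raw read counts per miRNA gene on mm10 with GENCODE M21, per the labels and the text deposited beside them. For the aligner and the counter: not given in the sources used here. Of 1 unstranded and 2 stranded columns, the stranded one with the larger total (3758318 and 5598792 counts) was read as sense. The 4 summary lines entered no library size or test: they held 9.53% and 14.4% of reads as unmapped and 3.47% and 4.24% as outside any feature, beside those that mapped to several places.

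CPM were computed over all 2202 miRNA genes. Libraries were compared with an exact binomial test (scipy 1.17.1) on effective library sizes from TMM over detected genes (edgeR 4.0.16), with Benjamini-Hochberg adjustment at 0.05. Alternatives were DESeq2 1.42.0 size factors, total counts, no filter, the unstranded counts, a chi-square test, the edgeR exact test, other detection limits and denominators, and each library left out. Shared runs compare the GENCODE transcript sequences in both orientations. Leaving out hairpins at the same place, the runs of single arms and the epithelial sum without Mir203 were added after seeing the data. Named genes are the 10 members, genes that overlap a member or have its mature sequence, the 3 nearest by level to each detected member, and the 2 highest of each marker list; a few others are given as relatives or neighbours in sequence, chosen after their values were seen. Mir133c, Mir194-1, miR-6349 and miR-6382 are of that kind. Mir138-1 and Mir138-2 were also named after their values were seen, because they go against the sum of their list. Mir486a and Mir486b matched no symbol and were left out. The annotation has Mir486, which is named for that reason and entered no sum. Members and lists were chosen with earlier results of these data known.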

Additional observations from a re-analysis of the deposited data

Results flagged for a closer look

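The column for the other strand held counts for Mir1a-2, a gene with no sense count: 13 in replicate 1 and 9 in replicate 2, above the 3 counts that a count of 0 allows. They equal the sense counts of Mir1b, which covers Mir1a-2 on the other strand, so they are the same reads as those given for Mir1b. Mir208a had 3 counts on the other strand in replicate 1 and 0 in replicate 2, with no miRNA gene annotated there.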

How the results depend on the processing

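Levels depend on what they are divided by. Per 1000000 of all reads, the 9 muscle genes summed to 28.0 and Mir122 to 12.5, and per 1000000 sense counts without let-7 genes to 127.2 and 56.7, against 79.9 and 35.7 CPM. With 1 or more counts in both libraries, 5 of the 10 genes were detected. Leaving out each library in turn gave 3 to 5 genes detected, 66.5 to 93.2 CPM for the muscle genes and 23.9 to 47.5 CPM for Mir122; without replicate 1, Mir208a and Mir208b were the 2 added. With the edgeR exact test and common dispersion, 2 of 384 genes and 0 of the 3 members were called, with 18 genes at an unadjusted p under 0.05 and none of the members among them. This test counts the spread between libraries as error, which the binomial test does not. Mir206 was not called without the filter, where 752 genes were tested. Detection at 5 or 30 counts or at 1 CPM gave 4, 3 and 4 genes. At 16 or 24 shared bases, 5 and 4 genes shared a run, and 5 did with hairpins at the same place left out. No paired analysis was possible because there is 1 group. Depth limits the ratios of Mir208a and Mir208b, with 6 and 2 counts in replicate 1.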
